A study of Mus musculus with 12 samples.

Results

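A set of 10 genes that control lipid peroxides in ferroptosis was followed in hematopoietic stem cells (HSCs) sorted from mouse bone marrow. They were picked by name, namely Gpx4, Acsl4, Slc7a11, Slc3a2, Aifm2, Lpcat3, Gclc, Gclm, Gss and Nfe2l2, and all 10 were found among 31340 gene rows. The 12 RNA-seq libraries came from wild-type (WT) mice and formed 4 groups of 3. Ctrl mice served as controls, IR mice were exposed to ionizing radiation, and a pair of further groups, Ab_IR and L_IR, carried a second label beside the radiation. The labels do not spell out Ab or L, and cells were taken 3 days after IR. The labels do not say whether the 3 samples of a group came from separate animals, so p-values measure the spread between these samples only. Levels are given as FPKM, fragments scaled by the authors to gene length and library size.

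Ferroptosis is a form of cell death driven by iron-dependent peroxidation of polyunsaturated phospholipids in membranes. Acsl4 activates polyunsaturated fatty acids and Lpcat3 inserts them into phospholipids, which supplies the lipid that is peroxidized. Gpx4, a selenoenzyme, reduces lipid peroxides at the expense of glutathione, and Aifm2 (also called FSP1) offers a parallel defence through coenzyme Q. Cystine enters through a transporter made of Slc7a11 and its heavy chain Slc3a2. Gclc and Gclm, the catalytic and modifier subunits of glutamate-cysteine ligase, and then Gss, glutathione synthetase, build glutathione from it. Nfe2l2 encodes NRF2, a transcription factor for many of these genes. HSCs are known to be sensitive to radiation, and cell death with lipid peroxidation is among their described fates.

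Some sequences show how these genes are built and what their promoters hold. Gpx4 lies on chr10:80047166-80056439 (plus strand, GRCm38, GENCODE M21). Its selenocysteine codon at chr10:80054737-80054739, codon 33, 73 or 129 of 3 annotated transcripts, is a TGA that elsewhere stops translation, shown in capitals with 24 coding bases on each side:
Gpx4 selenocysteine codon: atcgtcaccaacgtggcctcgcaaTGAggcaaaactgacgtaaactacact
RefSeq promoter windows (GRCm38.p6, 250 bases before to 50 after a start) were at hand for 9 of the 10 genes, with 12 windows in all and none used here for Gclc. The core of the antioxidant response element, TGACNNNGC on either strand, was found in 12.4% of 32851 such windows of all genes. Among the 9 genes with a window it was present once in the Gclm window and once in the Nfe2l2 window. The Gclm window on chr3:122245307-122245606 (plus strand) is printed with that match in capitals, since Gclm and its partner Gclc are set against each other below:
Gclm promoter: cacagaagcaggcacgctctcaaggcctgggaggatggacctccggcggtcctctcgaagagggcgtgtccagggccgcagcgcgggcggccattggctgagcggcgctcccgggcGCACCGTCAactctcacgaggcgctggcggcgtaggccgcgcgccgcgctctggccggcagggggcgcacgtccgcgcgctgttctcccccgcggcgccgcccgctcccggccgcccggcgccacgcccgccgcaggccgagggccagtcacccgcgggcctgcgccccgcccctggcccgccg
The C/EBP-ATF core TGATGNAA stood in 3.97% of windows and, of these 9 genes, in that of Slc7a11 alone, with 2 matches in capitals (chr3:50443564-50443863, minus strand), shown because Slc7a11 was nearly silent in every library:
Slc7a11 promoter: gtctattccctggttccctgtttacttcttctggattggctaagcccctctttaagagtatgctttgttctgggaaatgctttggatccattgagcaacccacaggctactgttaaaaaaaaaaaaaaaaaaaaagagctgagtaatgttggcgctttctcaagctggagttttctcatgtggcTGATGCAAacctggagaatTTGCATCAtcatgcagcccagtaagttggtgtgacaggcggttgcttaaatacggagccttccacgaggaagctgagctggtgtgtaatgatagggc
The motifs do not overlap here, and a match describes the letters only.

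Several features of the libraries bear on every value below. Ctrl replicate 1 stood apart, with 44.1% of rows listed at 0 against 24.7% to 27.3% elsewhere. A heart transcript, Nppa, reached 51.2 to 63.9 FPKM in 5 libraries, namely those of IR and Ctrl replicates 2 and 3, and 0 to 0.26 FPKM in the remaining 7. Between IR and either Ab_IR or L_IR this split can be told apart from the groups only through Ctrl replicate 1. Of 10 HSC markers, 3 to 5 reached 1 FPKM in any library of a group. Ly6a (25.9 to 61.5 FPKM) and Kit (6.7 to 25.5 FPKM) were among them, while Hoxb5 (0 to 0.07 FPKM), Fgd5 (0 to 0.22 FPKM) and Mecom (0.04 to 0.25 FPKM) were near 0. The label HSC is therefore used only as the name of the sort.

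Markers of mature blood cells were abundant and differed between groups. Summed FPKM of 10 erythroid markers was 3425 to 4061 in Ctrl, 599.6 to 610.7 in IR, 3525 to 3693 in Ab_IR and 1840 to 1902 in L_IR. The 6 markers of mast cells, basophils and eosinophils summed to 3825 to 5016, 494.7 to 497.5, 5524 to 5689 and 2456 to 2499 in that order of groups. The 8 megakaryocyte and platelet markers summed to 59.1 to 74.6, 15.1 to 17.6, 148.4 to 152.1 and 92.9 to 98.5, of which 5 to 7 reached 1 FPKM. The 10 neutrophil and monocyte markers summed to 9939 to 11647 in Ctrl, 14500 to 14820 in IR, 10738 to 11363 in Ab_IR and 8524 to 8748 in L_IR. The 8 macrophage markers summed to 101.2 to 105.8, 69.1 to 74.6, 108.6 to 118.4 and 104.6 to 113.4. The 8 B and plasma cell markers summed to 9980 to 13203, 17239 to 18456, 17784 to 18403 and 25496 to 26369, and the 6 T cell markers to 12.4 to 14.6, 6.62 to 8.56, 14.8 to 16.8 and 23.6 to 24.7. No blood cell marker was listed at 0 in all libraries of a group. The erythroid, megakaryocyte, macrophage, T cell and mast cell sums were lowest in IR, as were Gclc, Gpx4, Lpcat3 and Gss below, and their part in those results was not tested. The sort followed lineage depletion and gated on cells without T cell, B cell, myeloid and erythroid surface markers, which should remove mature cells of these types. In such bulk samples, fewer cells of a type and less RNA per cell cannot be told apart.

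In IR against Ctrl 4 of the 9 tested genes were lower, where 25.5% of 12072 genes were lower, and none was higher, where 17.5% were. Gclc fell by 51.0% (means of 13.0 against 26.6 FPKM), Lpcat3 by 32.5%, Gss by 29.8% and Gpx4 by 28.1%. Acsl4, Slc3a2, Gclm, Aifm2 and Nfe2l2 did not pass the test. In Ab_IR and L_IR these 4 genes were higher than in IR, with Gclc at 24.6 and 22.03 FPKM and Gpx4 at 105.4 and 82.6 FPKM. A gene passed where limma, fitted to log2(FPKM + 1) over every gene that reached 1 FPKM in 3 or more of the 6 libraries, gave an adjusted p under 0.05. Slc7a11 was under that minimum in every comparison and was not tested, so 9 of 10 genes entered each test.

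**Figure D1:**
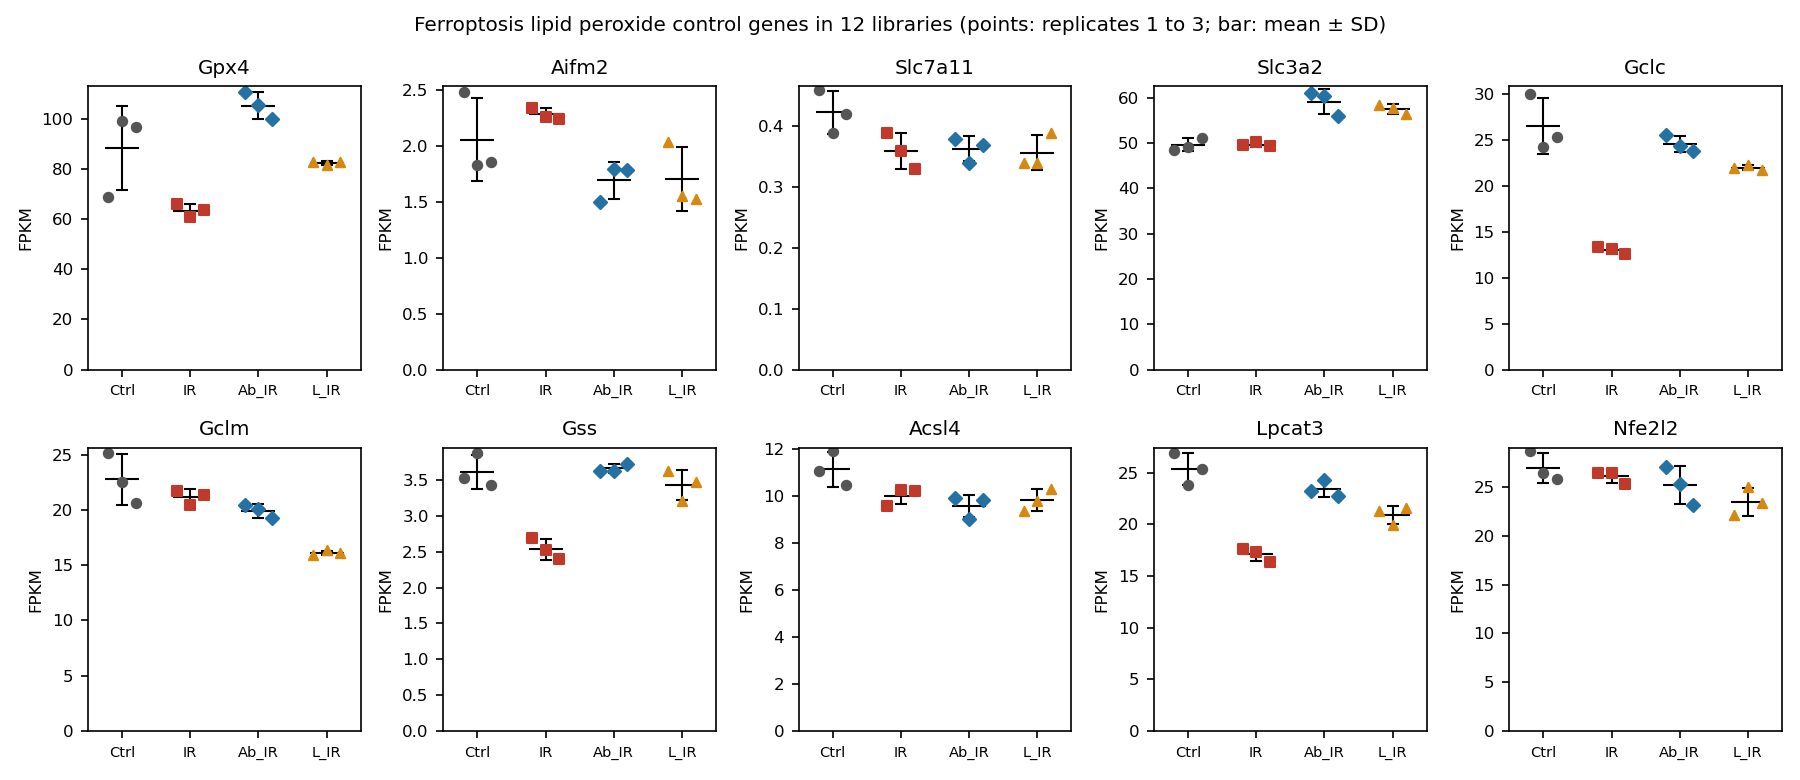
FPKM (y axis, from 0) of the 10 genes in the 4 groups (x axis), with a point for each of 3 replicates and a bar for the mean ± SD. Gclc stood at 12.6 to 13.4 FPKM in IR and at 21.8 to 30.1 FPKM in the other groups, while Slc3a2 stayed between 48.5 and 61.1 FPKM.

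Because FPKM are per length, levels can be set side by side between genes. The mean over 12 libraries was 84.98 FPKM for Gpx4 and 54.0 FPKM for Slc3a2. Nfe2l2 (25.4 FPKM), Lpcat3 (21.7 FPKM), Gclc (21.6 FPKM) and Gclm (19.98 FPKM) followed, and their ranges over libraries overlapped. Acsl4 stood at 10.1 FPKM, Gss at 3.31 FPKM, Aifm2 at 1.93 FPKM and Slc7a11 at 0.376 FPKM. Gclc varied most, its highest library being 2.39 times its lowest, and Slc3a2 least, with 1.26 times. Within the cystine transporter the heavy chain was thus abundant where the Slc7a11 chain, which gives the transporter its specificity, was barely detected.

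Gpx4, the enzyme that reduces phospholipid peroxides, was lowest in IR and highest in Ab_IR. It was measured at 69.0, 99.3 and 96.9 FPKM in Ctrl, and at 66.0, 61.0 and 63.6 FPKM in IR. Ab_IR libraries held 110.7, 105.6 and 99.9 FPKM and L_IR libraries 83.1, 81.6 and 83.0 FPKM. Ctrl replicate 1 was the low one of its group and lay close to IR, although Ctrl and IR did not overlap. The log2 fold change was -0.45 (SE 0.144, adjusted p 0.0447) for IR against Ctrl. That call rested on the choice of libraries and settings. Without Ctrl replicate 1 the log2 value was -0.62 (adjusted p 1.24e-04), and without any other single library the adjusted p was 0.0991 to 0.135. The call was lost too with no filter (adjusted p 0.0991) and under median ratio scaling (adjusted p 0.0657). Gpx4 was 0.72 higher on the log2 scale in Ab_IR than in IR (SE 0.0490, adjusted p 1.33e-05) and 0.37 higher in L_IR than in IR (SE 0.0323, adjusted p 6.09e-05). With the Nppa split as a term, an estimate that hangs on Ctrl replicate 1, these differences were 1.22 and 0.87. Gpx4 was also 0.35 higher in Ab_IR than in L_IR (SE 0.0439, adjusted p 0.00116), and the groups did not overlap. A processed pseudogene, Gpx4-ps2, was listed at 23.6 to 38.8 FPKM in the same libraries, so reads may have been divided between near-identical copies.

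Aifm2, the coenzyme Q reductase that works beside Gpx4, went the other way at a low level. It was listed at 2.48, 1.83 and 1.85 FPKM in Ctrl, 2.34, 2.26 and 2.24 FPKM in IR, 1.5, 1.79 and 1.78 FPKM in Ab_IR, and 2.03, 1.55 and 1.52 FPKM in L_IR. Ctrl replicate 1 was again the odd library of its group, and Ctrl and IR overlapped. The difference of IR from Ctrl was 0.11 on the log2 scale (adjusted p 0.436), or 0.21 without Ctrl replicate 1 (adjusted p 0.0304). Aifm2 was lower in Ab_IR than in IR (log2 -0.29, SE 0.0624, adjusted p 0.00465), and lower again in L_IR than in IR (log2 -0.29, SE 0.0798, adjusted p 0.0163). With the Nppa term the log2 values were -0.58 in both, and under quantile normalization -0.46 and -0.50. The call in L_IR was lost without L_IR replicate 2 (adjusted p 0.0541) or 3 (adjusted p 0.0525). Aifm2 shares 596 bases with H2afy2, a protein-coding gene on the opposite strand.

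Of the cystine transporter, Slc3a2 was not called in IR against Ctrl (log2 0.0026, adjusted p 0.975), and Slc7a11 was too low to be tested. Whether either differed from Gpx4 was not tested. Slc7a11 was listed at 0.46, 0.39 and 0.42 FPKM in Ctrl, 0.39, 0.36 and 0.33 FPKM in IR, 0.38, 0.34 and 0.37 FPKM in Ab_IR, and 0.34, 0.34 and 0.39 FPKM in L_IR. All 4 groups lay in this narrow band, far below every other member. The lowest Ctrl library was above the highest Ab_IR library, and each of the other pairs of groups overlapped or touched. Slc3a2 held 48.5, 49.2 and 51.2 FPKM in Ctrl and 49.6, 50.2 and 49.3 FPKM in IR, which overlapped. The values in Ab_IR were 61.1, 60.4 and 56.0 FPKM and in L_IR 58.5, 57.8 and 56.5 FPKM, all above the 6 libraries of Ctrl and IR. Slc3a2 thus rose over IR in Ab_IR (log2 0.25, SE 0.0414, adjusted p 0.00134) and in L_IR (log2 0.21, SE 0.0235, adjusted p 2.28e-04). The first of these was not called once immunoglobulin genes were left out of the scaling (log2 0.10, adjusted p 0.163).

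Of the glutathione synthesis genes, the ligase subunits parted. Gclc was listed at 30.1, 24.3 and 25.4 FPKM in Ctrl, 13.4, 13.1 and 12.6 FPKM in IR, 25.6, 24.4 and 23.8 FPKM in Ab_IR, and 22, 22.3 and 21.8 FPKM in L_IR. Every IR library was well below the 9 others. The log2 fold change of IR against Ctrl was -0.97 (SE 0.0902, adjusted p 4.19e-04), and leaving out any of the 6 libraries gave -1.03 to -0.88. Gclc was 0.87 higher on the log2 scale in Ab_IR than in IR (SE 0.0423, adjusted p 2.77e-06) and 0.72 higher in L_IR (SE 0.0312, adjusted p 2.39e-06). With the Nppa term the latter was 0.45 (adjusted p 3.23e-04).

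Gclm, which lowers the feedback inhibition of Gclc by glutathione, was listed at 25.2, 22.5 and 20.6 FPKM in Ctrl and 21.7, 20.4 and 21.4 FPKM in IR. These groups overlapped, and the log2 difference was -0.09 (SE 0.0841, adjusted p 0.405). It held 20.5, 20.03 and 19.2 FPKM in Ab_IR and 15.9, 16.3 and 16.1 FPKM in L_IR, where it was lowest. Gclm was lower in L_IR than in IR (log2 -0.37, SE 0.0315, adjusted p 5.44e-05, and -0.59 with the Nppa term), and 0.29 higher in Ab_IR than in L_IR (SE 0.0383, adjusted p 0.00144). In Ab_IR the difference from IR was -0.09 (adjusted p 0.101). That difference passed under median ratio scaling (log2 -0.14, adjusted p 0.0112), without immunoglobulin genes (log2 -0.23, adjusted p 0.00492) and with the Nppa term (log2 -0.30, adjusted p 0.00569). Gclm shares 14775 bases with Gm17494 on the opposite strand, listed at 0.99 to 8.45 FPKM, and 492 bases with the pseudogene Gm6061 on its own strand.

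Gss, which adds glycine in the last step, was listed at 3.53, 3.88 and 3.43 FPKM in Ctrl, 2.69, 2.52 and 2.40 FPKM in IR, 3.63, 3.63 and 3.73 FPKM in Ab_IR, and 3.62, 3.21 and 3.47 FPKM in L_IR. The IR libraries were the lowest 3 of 12. The log2 value was -0.38 for IR against Ctrl (SE 0.0779, adjusted p 0.00895), 0.40 for Ab_IR against IR (SE 0.0509, adjusted p 3.16e-04) and 0.33 for L_IR against IR (SE 0.0560, adjusted p 0.00182). Quantile normalization ended the calls for IR against Ctrl (log2 -0.20, adjusted p 0.0951) and L_IR against IR (log2 0.13, adjusted p 0.0764), and gave 0.24 for Ab_IR against IR (adjusted p 0.00420). Gss shares 22544 bases with Acss2 on the opposite strand, and the use of strand in counting is not given in the sources used here. Acss2 was listed at 2.41 to 2.90 FPKM in Ctrl, 1.08 to 1.21 FPKM in IR, 2.23 to 2.71 FPKM in Ab_IR and 1.98 to 2.24 FPKM in L_IR, so reads of the pair may not be separable.

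The lipid supply genes also differed from each other. Acsl4 was nearly level, at 11.03, 11.9 and 10.4 FPKM in Ctrl, 9.57, 10.2 and 10.2 FPKM in IR, 9.88, 9.02 and 9.80 FPKM in Ab_IR, and 9.36, 9.77 and 10.3 FPKM in L_IR. The 3 Ctrl libraries were above the 9 others, yet no comparison passed, with log2 differences of -0.14 (adjusted p 0.162) for IR against Ctrl, -0.06 (adjusted p 0.326) for Ab_IR against IR and -0.03 (adjusted p 0.644) for L_IR against IR. A p above the threshold does not show that the levels were alike. Without immunoglobulin genes Acsl4 was lower in Ab_IR than in IR (log2 -0.20, adjusted p 0.0105), as was Nfe2l2 (log2 -0.20, adjusted p 0.0339).

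Lpcat3 was listed at 26.9, 23.8 and 25.3 FPKM in Ctrl, 17.6, 17.3 and 16.4 FPKM in IR, 23.3, 24.3 and 22.8 FPKM in Ab_IR, and 21.3, 19.9 and 21.6 FPKM in L_IR. The IR libraries were again the lowest 3, and L_IR lay between IR and Ab_IR. The log2 value was -0.54 for IR against Ctrl (SE 0.0687, adjusted p 0.00144), and leaving out any of the 6 libraries kept it between -0.58 and -0.50. Lpcat3 was 0.43 higher in Ab_IR than in IR (SE 0.0431, adjusted p 8.98e-05, and 0.29 without immunoglobulin genes) and 0.28 higher in L_IR than in IR (SE 0.0418, adjusted p 9.58e-04). The difference for L_IR did not pass with the Nppa split as a term (log2 0.15, adjusted p 0.143). Lpcat3 shares 334 bases with Emg1 on the other strand, listed at 20.6 to 28.3 FPKM.

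Nfe2l2, the regulator, was listed at 28.7, 26.5 and 25.8 FPKM in Ctrl, 26.5, 26.5 and 25.3 FPKM in IR, 27.1, 25.3 and 23.2 FPKM in Ab_IR, and 22.2, 25.0 and 23.3 FPKM in L_IR. Ctrl, IR and Ab_IR overlapped, and the log2 value for IR against Ctrl was -0.05 (adjusted p 0.593). Nfe2l2 was lower in L_IR than in IR (log2 -0.15, SE 0.0461, adjusted p 0.0266), a call lost without filter, under quantile normalization, in 1 fit of all 12 libraries, or without IR replicate 1 or 2 or L_IR replicate 1 or 3 (adjusted p 0.0575 to 0.145 over these). With the Nppa term this difference was -0.28 (adjusted p 0.0445). NRF2 is regulated mostly through its protein, which was not measured here.

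**Figure D2:**
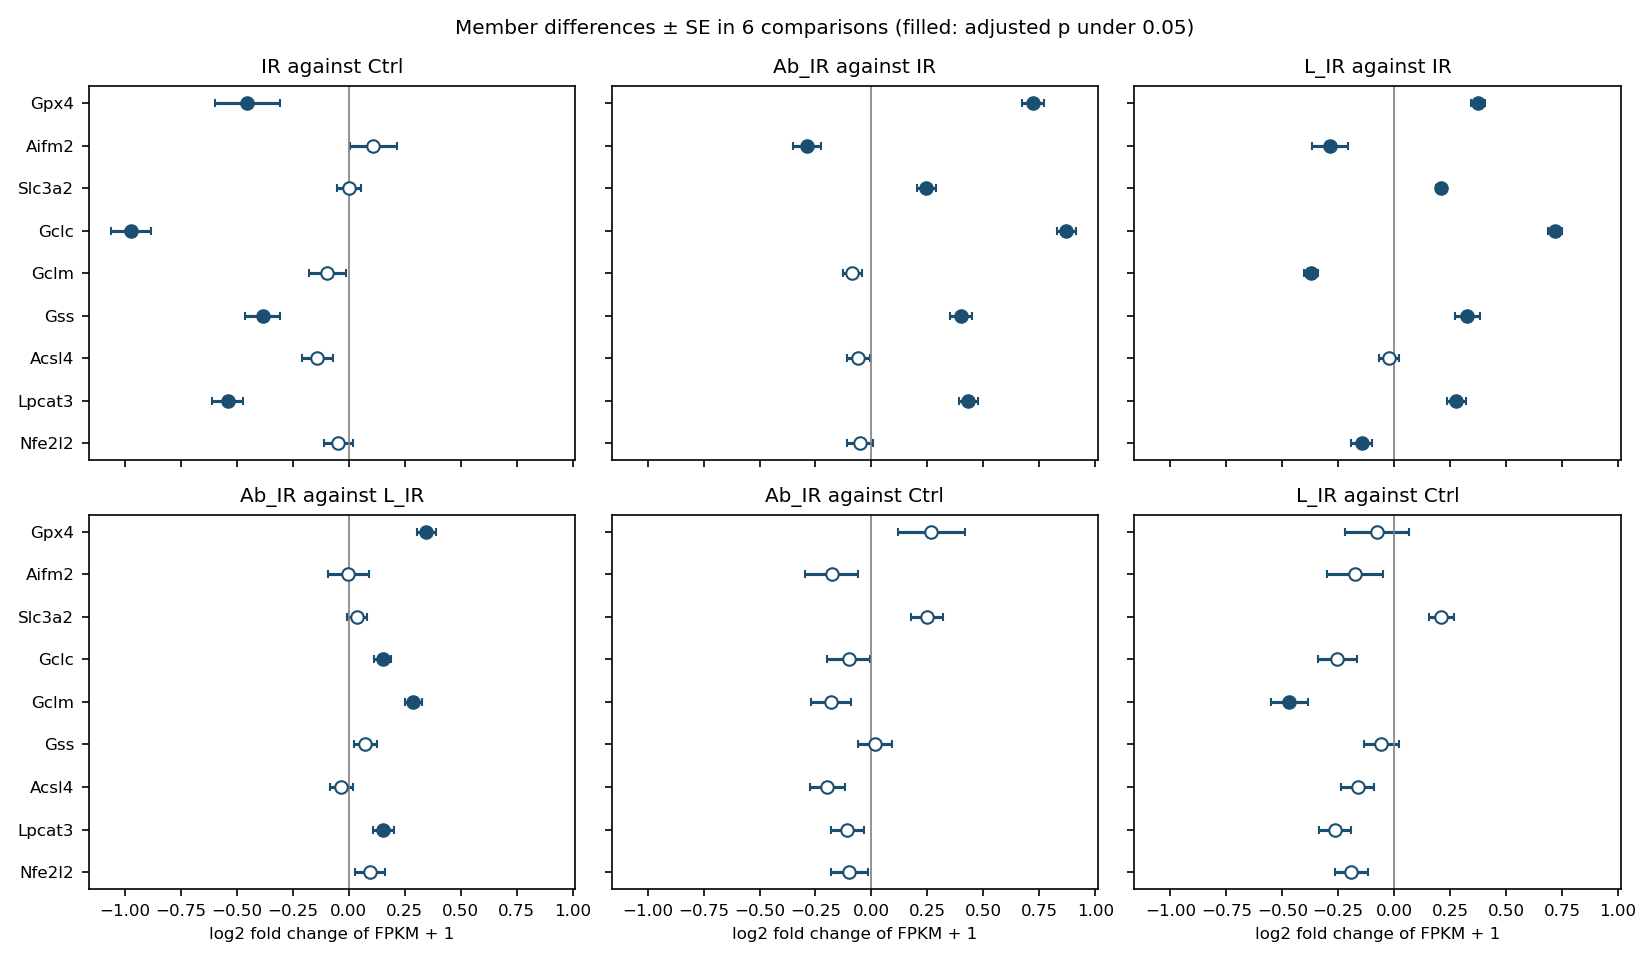
Log2 fold change of FPKM + 1 (x axis) with its SE for the 9 tested genes (y axis) in 6 comparisons, with filled points for an adjusted p under 0.05. Gclc had the largest member difference in IR against Ctrl (-0.97) and in Ab_IR against IR (0.87), and no point passes 1 in either direction on this scale, on which a pseudocount of 0.1 would put Gclc at -1.02 in IR against Ctrl.

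Counts of members are read against all genes tested. For IR against Ctrl they are given above. In Ab_IR against IR, 5 were higher (39.4% of 12067 genes) and 1, Aifm2, was lower (29.4%). With immunoglobulin genes left out 4 were higher (Gpx4, Gclc, Gss and Lpcat3) and 4 lower (Aifm2, Gclm, Acsl4 and Nfe2l2), beside 28.3% and 39.3% of all genes under that setting. In L_IR against IR, 5 were higher (40.8% of 12163 genes) and 3, Aifm2, Gclm and Nfe2l2, were lower (26%). Many other genes also passed, and the member counts have to be read against that background. On log2(FPKM + 1) no member passed the study's fold limit of 1 on the log2 scale in any comparison. This rests on the pseudocount for Gclc in IR against Ctrl, which was at -1.02 with a pseudocount of 0.1, and at -1.03 and -1.0005 without Ctrl replicate 2 and 3. With the Nppa term Gpx4 also passed the limit in Ab_IR against IR, as given above. That limit was passed by 7.6%, 7.57% and 6.22% of genes in these 3 comparisons. Median log2 values of the members were -0.14, 0.25 and 0.21 beside -0.05, 0.06 and 0.07 over all genes tested. These comparisons share the IR libraries, so a low level in IR enters each of them. The share of higher among called genes also depended on scaling. It was 40.7% for IR against Ctrl and 50.9% under quantile normalization. For Ab_IR against IR it was 57.3%, against 46.8% under quantile normalization and 41.9% without immunoglobulin genes. For L_IR against IR it was 61.0% and 48.5% under quantile normalization.

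Comparing Ab_IR with L_IR showed higher Gpx4, Gclm, Gclc and Lpcat3 in Ab_IR. These were 4 of 9 members, where 18.2% of 12194 genes were higher, and 0 were lower, where 19.8% were. The fold limit was passed by 0.533% of genes. The calls for Gclc (log2 0.15, SE 0.0390, adjusted p 0.0200) and Lpcat3 (log2 0.16, SE 0.0451, adjusted p 0.0315) were lost when any single L_IR library was left out, with adjusted p of 0.0528 to 0.0741 and 0.0512 to 0.105. That for Lpcat3 was lost also without Ab_IR replicate 1 or 2 (adjusted p 0.0565 and 0.0834). With all 12 libraries in 1 fit Gpx4, Gclc and Lpcat3 had adjusted p of 0.0541, 0.155 and 0.0753. Immunoglobulin genes took 13.5% to 14.3% of FPKM in Ab_IR and 21.9% to 22.6% in L_IR. Leaving them out moved the median of all genes by -0.12 in this comparison and likewise by -0.12 in Ab_IR against IR, and lowered the share of higher among called genes here from 47.9% to 16.2%. Relative to that median, Gpx4 was 0.34 higher in Ab_IR before and 0.31 after, Gclm 0.28 and 0.26, Gclc 0.15 and 0.12, and Lpcat3 0.15 and 0.13. As fitted without these genes, Gclc and Lpcat3 were no longer called (adjusted p 0.866 and 0.839), while Gpx4 was 0.20 and Gclm 0.15 higher (adjusted p 0.0246 and 0.0467). Acsl4 was then lower in Ab_IR than in L_IR (log2 -0.16, adjusted p 0.0476). Slc3a2 (log2 0.04, adjusted p 0.530), Gss (log2 0.07, adjusted p 0.298), Acsl4, Nfe2l2 and Aifm2 did not pass. Slc3a2, Gss and Nfe2l2 turned to -0.11, -0.04 and -0.05 without immunoglobulin genes.

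Against Ctrl, few members differed in the groups Ab_IR and L_IR. In Ab_IR 0 of 9 passed the limma test, where 1.45% of 12134 genes were higher and 0.651% lower, and 2, Slc3a2 and Acsl4, had an unadjusted p under 0.05. Slc3a2 was 0.25 higher on the log2 scale (SE 0.0703, adjusted p 0.146) and Gpx4 0.27 higher (SE 0.148, adjusted p 0.323). The Gpx4 value was 0.10 without Ctrl replicate 1 and 0.60 with the Nppa term, which hangs on that library. In L_IR 1 of 9 passed, namely Gclm (log2 -0.47, SE 0.0830, adjusted p 0.0202), where 4.08% of 12251 genes were lower and 4.76% higher. Past the fold limit were 0.923% and 2.65% of genes. The share of higher among called genes was 69.0% for Ab_IR and 53.8% for L_IR, and 54.0% and 65.9% without immunoglobulin genes. Ctrl replicate 1 widened the spread of Ctrl. Without it 4 members passed in L_IR against Ctrl, 1 higher and 3 lower, beside 10.4% and 10.3% of all genes, and still 0 in Ab_IR against Ctrl, beside 3.6% and 2.38%. Without Ctrl replicate 2 or any L_IR library the Gclm call was lost (adjusted p 0.0563 to 0.112), as it was without immunoglobulin genes (adjusted p 0.0933). Levels in Ab_IR and L_IR thus cannot be called equal to Ctrl from these tests.

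Ratios of members within a library do not depend on its scaling. Gpx4 over Acsl4, the peroxide reductase beside the enzyme that activates its lipid substrate, was 6.26, 8.34 and 9.29 in Ctrl and 5.96 to 6.90 in IR. It was 10.2 to 11.7 in Ab_IR and 8.06 to 8.88 in L_IR, so that Ab_IR lay above every library of the other groups. On the log2 scale the means were 2.97 ± 0.295, 2.67 ± 0.108, 3.46 ± 0.102 and 3.07 ± 0.0705 (SD, n = 3) for Ctrl, IR, Ab_IR and L_IR. Gclc over Gclm was 1.08 to 1.23 in Ctrl and 0.588 to 0.641 in IR, then 1.22 to 1.25 in Ab_IR and 1.36 to 1.38 in L_IR. The IR libraries alone held less Gclc than Gclm. The log2 means were 0.22 ± 0.0994, -0.70 ± 0.0626, 0.31 ± 0.0192 and 0.45 ± 0.0144 (SD, n = 3). For Slc3a2 over Gss the log2 means were 3.78 ± 0.117, 4.29 ± 0.0807, 4.01 ± 0.0915 and 4.07 ± 0.0877, with IR the highest group. No p was computed for these ratios. On FPKM + 1 the log2 difference of Slc3a2 over Gss, whose denominator is low, shrank from -0.28 to -0.15 for Ab_IR against IR and from -0.22 to -0.12 for L_IR against IR.

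**Figure D3:**
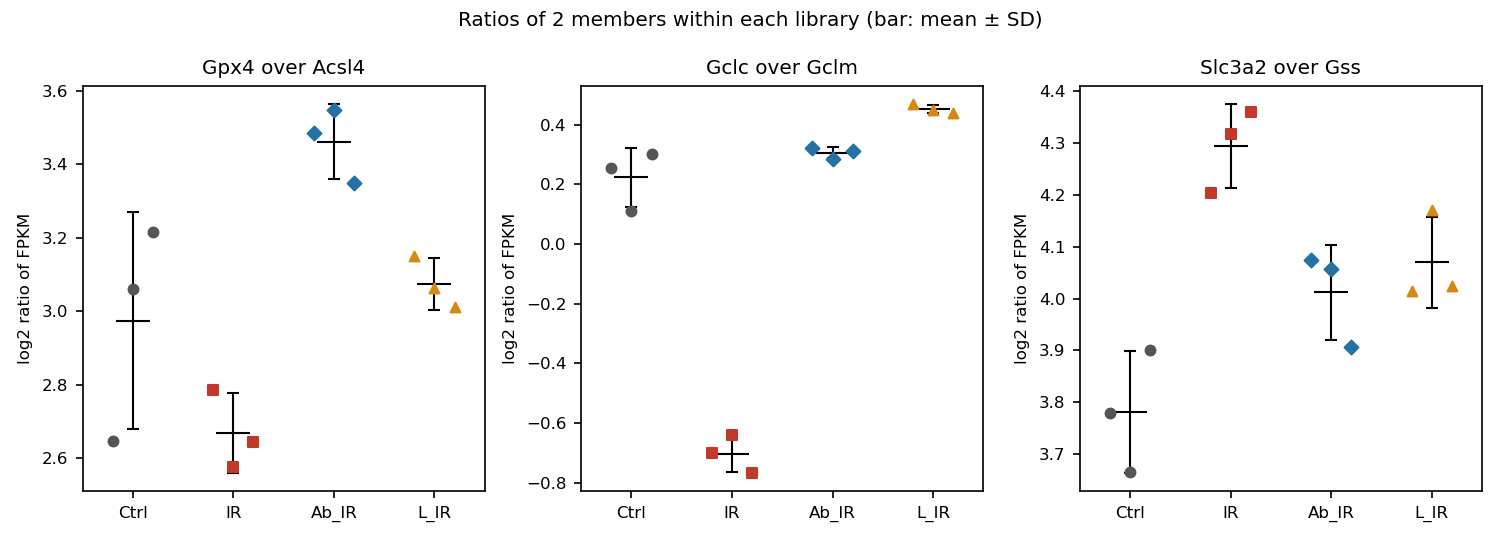
Log2 ratio of FPKM (y axis) of Gpx4 to Acsl4, Gclc to Gclm and Slc3a2 to Gss in each library, by group (x axis), with the mean ± SD of 3. The Gclc to Gclm ratio was below 0 on the log2 scale in the 3 IR libraries (-0.77 to -0.64) and above 0 in the other 9.

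Among the genes most like Gpx4 across the 12 libraries were Rps6, Cox7a2l, H3f3a and Eef1b2. After each gene was centred, log2(FPKM + 1) differed from Gpx4 by 0.0554 to 0.0669 (root mean square), where the SD of Gpx4 itself was 0.286. Rps6 encodes a ribosomal protein and Eef1b2 a translation elongation factor. For Acsl4, whose SD was 0.0932, the nearest were Stag2, Ncapg2, Idh1, Purb and Tcea1, at 0.0490 to 0.0522. Both lists were drawn from the 4747 genes whose mean reached 10 FPKM.

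A further 72 genes of the pathway were followed in 7 lists. For IR against Ctrl 20 of 67 tested were higher and 23 lower, beside 17.5% and 25.5% of all genes. For Ab_IR against IR 29 and 22 of 68 were, beside 39.4% and 29.4%, and for L_IR against IR 31 and 25 of 67, beside 40.8% and 26%. Nothing particular to the pathway is read from these counts, which were not tested as sets, and the same shares of all genes apply to each list below. One list held genes that recycle glutathione and supply NADPH. Of this list 9 of 12 tested were higher in IR against Ctrl, with a median of 0.47 beside -0.05 over all genes. G6pdx, the entry enzyme of the pentose phosphate pathway, held 95.0, 82.8 and 94.2 FPKM in Ctrl and 242.3, 236.7 and 235.4 FPKM in IR. It held 86.9 to 92.1 FPKM in Ab_IR and 86.3 to 90.9 FPKM in L_IR, so that the IR libraries stood apart from all others. The log2 value was 1.39 (SE 0.0742, adjusted p 5.27e-05). Gsr, glutathione reductase, was at 108.4 to 118.2 FPKM in Ctrl and 184.5 to 189.1 FPKM in IR (log2 0.74, adjusted p 2.94e-04), and at 115.4 to 120.8 and 101.7 to 108.2 FPKM in Ab_IR and L_IR. In the same list 9 were lower in Ab_IR than in IR, and 10 were lower in L_IR than in IR. Neutrophil and monocyte marker sums, given above, were also highest in IR, and their part in this was not tested. The genes of that marker list were not alike. Ctsg, Ltf, S100a8, S100a9 and Csf3r were higher in every IR library than in any Ctrl library. Mpo, Elane, Prtn3 and Camp overlapped between IR and Ctrl. Ly6c2 was lower, at 148.46 to 174.27 FPKM in Ctrl and 33.98 to 37.35 FPKM in IR.

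NRF2 regulators and targets moved in both directions. Higher in IR against Ctrl were 4 of 9 (Txnrd1, Hmox1, Osgin1 and Mafg) and 1, Mafk, was lower. Txnrd1, thioredoxin reductase, held 12.6, 15.8 and 15.9 FPKM in Ctrl and 35.1 to 35.9 FPKM in IR (log2 1.22, SE 0.0960, adjusted p 2.21e-04), then 16.4 to 17.0 FPKM in Ab_IR and 20.1 to 21.5 FPKM in L_IR. Hmox1, heme oxygenase, was 7.98 to 10.7 FPKM in Ctrl, 15.8 to 20.1 FPKM in IR, 23.6 to 25.0 FPKM in Ab_IR and 24.9 to 35.3 FPKM in L_IR. Its log2 difference from Ctrl was 0.87 in IR (adjusted p 0.00245) and 1.29 in Ab_IR (adjusted p 0.00232), while L_IR reached 1.54 (adjusted p 0.00192). Mafk, a small Maf partner of NRF2, was 0.80 higher in Ab_IR and 0.70 higher in L_IR than in IR. In each of these 2 comparisons 3 of the list were higher (Mafk, Hmox1 and Srxn1) and 3 lower (Mafg, Txnrd1 and Osgin1). Genes of the lists that lie outside the rule for names, such as Osgin1 and Mafg, were chosen after their values were seen.

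**Figure D4:**
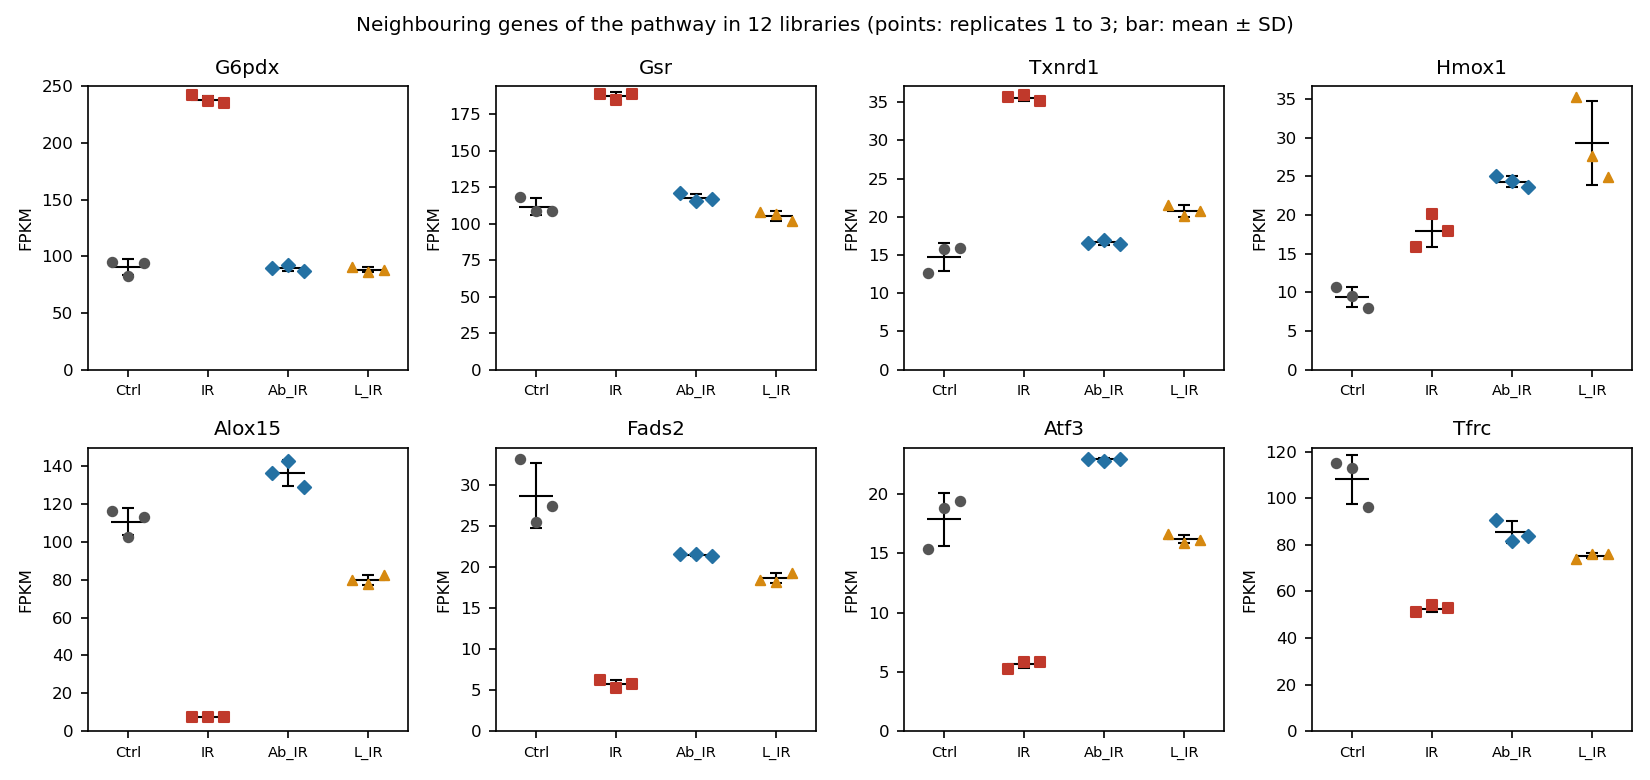
FPKM (y axis, from 0) of 8 other pathway genes in the 4 groups (x axis), with a point for each replicate and a bar for the mean ± SD. G6pdx, Gsr and Txnrd1 were highest in IR, Alox15, Fads2, Atf3 and Tfrc lowest in IR, and Hmox1 was above Ctrl in all irradiated groups.

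The ATF4 branch responds to amino acid shortage and drives cystine import among other targets. Of 5 genes, 4 were lower in IR against Ctrl (Atf4, Atf3, Ddit3 and Asns), where 25.5% of all genes were, and 0 were higher. The fifth, Trib3, had a log2 value of 0.12 (adjusted p 0.399). Atf3 went from 15.3, 18.9 and 19.4 FPKM in Ctrl to 5.26 to 5.85 FPKM in IR (log2 -1.50, SE 0.102, adjusted p 1.28e-04), and stood at 22.8 to 23.0 FPKM in Ab_IR and 15.9 to 16.6 FPKM in L_IR. Ddit3 differed by -0.69 in IR against Ctrl, 0.97 in Ab_IR against IR and 0.93 in L_IR against IR. The same count, 4 higher and 0 lower of 5, was found in each of the latter comparisons. Slc7a11, a known ATF4 target, was at 0.33 to 0.46 FPKM throughout, as given above.

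Of the drivers of lipid peroxidation, 2 (Elovl5 and Agps) were higher and 6 lower of 13 tested in IR against Ctrl. Alox15, a lipoxygenase that oxidizes polyunsaturated fatty acids, held 116.2, 102.7 and 113.2 FPKM in Ctrl and 7.45 to 7.55 FPKM in IR (log2 -3.71, SE 0.0664, adjusted p 2.47e-06). It held 129.3 to 143.1 FPKM in Ab_IR and 77.6 to 82.5 FPKM in L_IR, at log2 4.01 and 3.25 over IR. Fads2, a desaturase that makes polyunsaturated fatty acids, was 25.5 to 33.2 FPKM in Ctrl, 5.26 to 6.20 FPKM in IR, 21.3 to 21.6 FPKM in Ab_IR and 18.1 to 19.3 FPKM in L_IR (log2 -2.14 for IR against Ctrl). In Ab_IR against IR 8 of 14 were higher and 3 lower, and in L_IR against IR 9 and 4. The eosinophil marker Prg2 moved with Alox15, from 2673 to 3822 FPKM in Ctrl to 236.4 to 246.2 FPKM in IR, 4142 to 4230 FPKM in Ab_IR and 1656 to 1676 FPKM in L_IR. Its part in the Alox15 result was not tested.

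**Figure D5:**
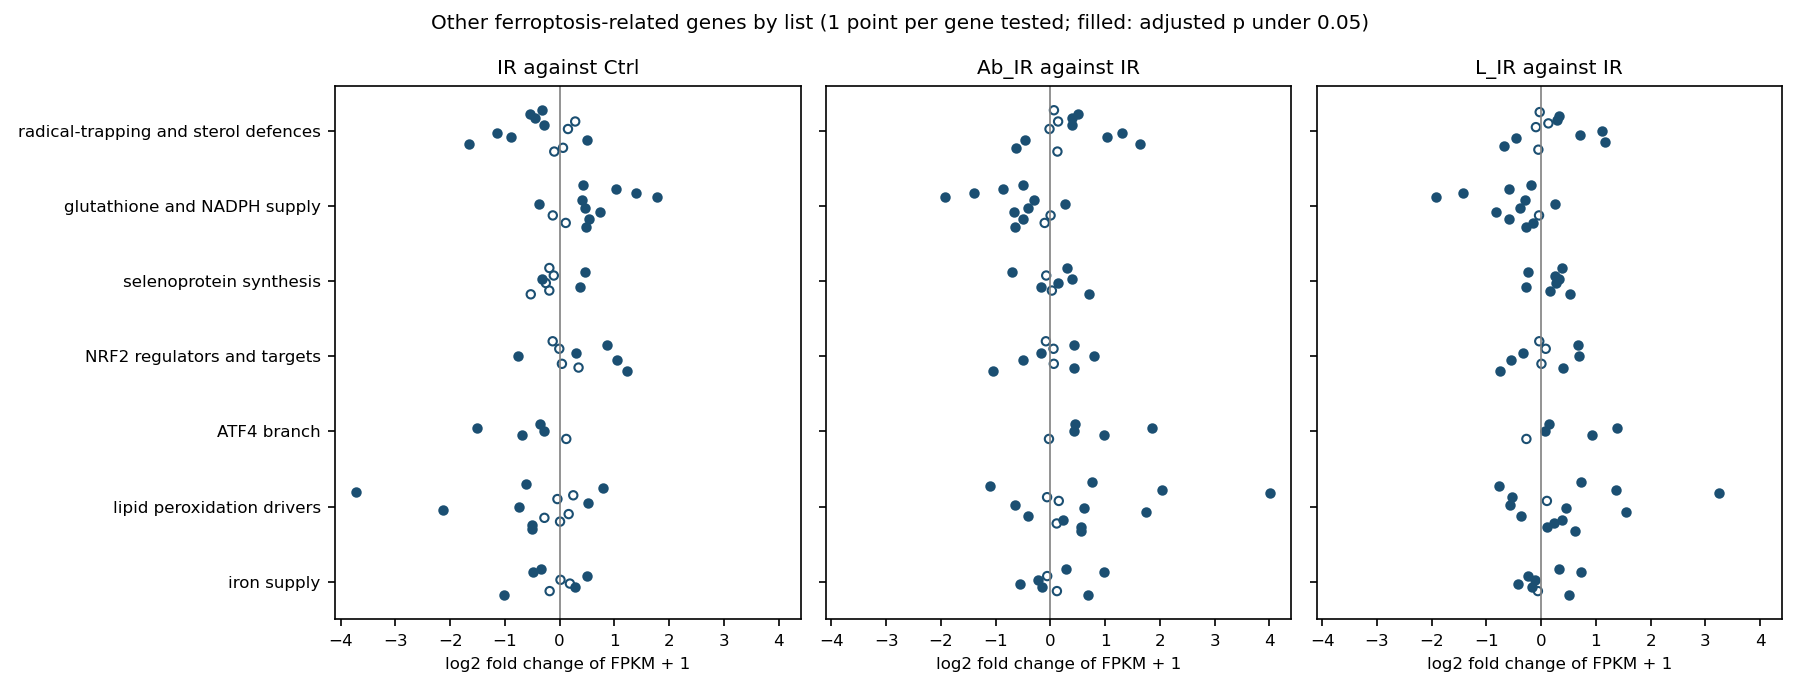
Log2 fold change of FPKM + 1 (x axis) of each tested gene in 7 lists (y axis) for IR against Ctrl, Ab_IR against IR and L_IR against IR, with filled points for an adjusted p under 0.05. In the glutathione and NADPH list 9 genes were higher in IR against Ctrl, and Alox15 is the point farthest to the left (-3.71).

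Among 12 genes of radical trapping and sterol metabolism, 7 were lower in IR against Ctrl, where 25.5% of all genes were, and 1 (Pdss2) was higher. Coq2, needed for coenzyme Q, had a log2 value of -0.54 in IR against Ctrl (adjusted p 0.00165), 0.51 in Ab_IR against IR and 0.33 in L_IR against IR. Dhcr7, the last enzyme of cholesterol synthesis, which consumes a radical-trapping sterol, was -0.45 in IR against Ctrl (adjusted p 0.0109). Scd2, a desaturase that makes monounsaturated fatty acids, was 54.5 to 58.8 FPKM in Ctrl and 58.7 to 61.2 FPKM in IR, but 37.1 to 39.0 FPKM in Ab_IR and 36.7 to 37.3 FPKM in L_IR. It was lower than in Ctrl in Ab_IR (log2 -0.56, adjusted p 0.0115), and L_IR differed by -0.61 (adjusted p 0.00175). The first call was lost without Ctrl replicate 3 or any one Ab_IR library (adjusted p up to 0.0927). In this list 6 were higher and 2 (Pdss2 and Scd2) lower in Ab_IR against IR, and 5 higher and 2 lower in L_IR against IR.

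Selenoprotein synthesis, on which Gpx4 depends for its selenocysteine, showed small differences in both directions. In IR against Ctrl 2 of 8 were higher and 1 lower, among them Sephs2 (log2 0.37, adjusted p 0.0183), which makes the selenium donor, and Scly (log2 -0.32, adjusted p 0.0472), which frees selenium for reuse. Neither call held without each library in turn, with adjusted p of up to 0.0793 and 0.142. Trit1, which modifies the tRNA for selenocysteine, was 0.71 higher in Ab_IR than in IR and 0.52 higher in L_IR than in IR. Eefsec, the elongation factor for selenocysteine, was 0.39 higher in L_IR than in IR. In Ab_IR against IR 4 were higher and 2 lower, and in L_IR against IR 6 and 2.

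Iron genes crossed these results. Tfrc, the transferrin receptor, was 96.2 to 115.1 FPKM in Ctrl, 51.2 to 54.0 FPKM in IR, 81.6 to 90.9 FPKM in Ab_IR and 74.2 to 76.0 FPKM in L_IR, and Fth1, the ferritin heavy chain, was 226.9 to 271.6, 169.9 to 186.7, 334.1 to 372.0 and 288.4 to 309.3 FPKM. The log2 values for IR against Ctrl were -1.02 for Tfrc and -0.48 for Fth1, 0.49 for the light chain Ftl1 (adjusted p 0.0202) and 0.19 for the ferritin receptor Ncoa4 (adjusted p 0.0838), and for Ab_IR against IR 0.69, 0.98, -0.06 (adjusted p 0.219) and -0.56. For L_IR against IR they were 0.51, 0.73, -0.23 (adjusted p 6.69e-04) and -0.41. Without Ctrl replicate 1 Ncoa4 passed in IR against Ctrl (log2 0.25, adjusted p 0.00272). The Ftl1 call in IR against Ctrl was lost without any one IR library (adjusted p up to 0.0791), and its difference for Ab_IR against IR became 0.33 with the Nppa term (adjusted p 0.00176), while that for L_IR against IR became 0.16 (adjusted p 0.0723). Of the 8 iron genes 2 were higher and 3 lower in IR against Ctrl, 3 and 3 in Ab_IR against IR, and 3 and 4 in L_IR against IR. Erythroid marker sums moved with Tfrc, and their part in it was not tested.

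In Ab_IR against L_IR, 20 of the 68 tested pathway genes were higher and 9 lower, beside 18.2% and 19.8% of all genes. Without immunoglobulin genes the split was 7 higher and 19 lower, beside 6.55% and 33.8% of all genes, so the direction of these counts follows the scaling. The named ones were Alox15 (log2 0.76), Alox5 (0.48), Atf3 (0.47), Atf4 (0.36), Fth1 (0.25), Coq2 (0.18), Vkorc1l1 (0.18), Slc40a1 (0.18), Trit1 (0.19) and Mafk (0.11) on the higher side. Tfrc (0.18) and Ftl1 (0.17) were higher too. Slc38a1 (log2 -0.38), Abcc1 (-0.33), Txnrd1 (-0.30) and Ncoa4 (-0.14) were lower. The calls for Tfrc and Ncoa4 were lost without any one L_IR library (adjusted p up to 0.0731 and 0.0928), that for Ncoa4 also without Ab_IR replicate 2 or 3, and that for Ftl1 without L_IR replicate 3 (adjusted p 0.0506). Without immunoglobulin genes the calls for Coq2, Vkorc1l1, Trit1, Mafk, Fth1, Slc40a1, Tfrc and Ftl1 were lost, with log2 values of -0.03 for Mafk and 0.03 to 0.11 for the others. The Mafk call was also lost without any one of the 6 libraries (adjusted p 0.0555 to 0.129). The call for Coq2 was kept only without Ab_IR replicate 3 (adjusted p up to 0.0814 without the others), and that for Vkorc1l1 was lost without Ab_IR replicate 1 or any one L_IR library (up to 0.119). The Slc40a1 call was lost without L_IR replicate 1 or 3 (up to 0.0543). Against Ctrl, 2 pathway genes were higher (Hmox1 and Alox12) and 1 lower (Scd2) of 66 tested in Ab_IR. The shares of all genes were 1.45% and 0.651%. In L_IR, where they were 4.76% and 4.08%, 3 were higher (Hmox1, Txnrd1 and Alox12) and 6 lower, among them Tfrc (log2 -0.51), Fads2 (-0.59), Alox15 (-0.46) and Acsl3 (-0.35). Without any one L_IR library the calls for Txnrd1, Tfrc, Fads2, Alox15 and Acsl3 were lost, with adjusted p of up to 0.162, 0.0978, 0.101, 0.0843 and 0.120. Those for Txnrd1 and Tfrc were lost also without Ctrl replicate 2, and that for Txnrd1 without Ctrl replicate 3.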

How the data were processed

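RNA was sequenced from cells sorted as HSCs (Lineage- Sca-1+ c-Kit+ Flt3- CD34-) of WT mice, 3 libraries per group. Per the labels, mRNA libraries were stranded, and the submitters' processing notes name fastp, HISAT2, StringTie and the build GRCm38 (mm10), while the study's methods name RSEM and DESeq2. The deposited values were read as FPKM computed by the authors. Their unit is not named in the files, and the reading rests on the sums of 344338 to 405123 per library and on the sums of FPKM times gene length in kb, 915903 to 947165. The depth is unknown, so no counting intervals are given.

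limma 3.58.1 in R 4.3.3 (lmFit, then eBayes with a mean-variance trend) modelled log2(FPKM + 1) in the 6 libraries of each pair of groups, keeping every gene that reached 1 FPKM in 3 or more of them. Benjamini-Hochberg adjusted p-values are over all genes tested, and a fold change understates low genes because of the pseudocount. Each of the 6 comparisons between groups was made. The script was tested on simulated data.

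Named were all 10 members. Of the 7 other lists the rule took the 2 called genes per comparison and list with the largest change, a mean of at least 5 FPKM and groups that do not overlap, plus Tfrc, Fth1, Ftl1 and Ncoa4, and the 5 genes nearest in pattern to Gpx4 and to Acsl4. The members, lists and 9 marker lists were chosen with earlier results of these data known. The 6 heart markers, the last of these lists, summed to 0.26 to 137.2 FPKM in Ctrl, 111.7 to 142.6 in IR, 0.35 to 0.59 in Ab_IR and 0.29 to 0.48 in L_IR. Replicate numbers did not pair the samples. Alternatives were a pseudocount of 0.1, no filter, only genes whose mean reached 10 FPKM, quantile normalization, median ratio scaling, immunoglobulin genes left out, no trend, all 12 libraries in 1 fit, the replicate number as a block, the Nppa split as a term, and each library left out in turn. Ratios were also computed on FPKM + 1. Plots used matplotlib 3.10.9 (Python 3.11.15). Positions came from GENCODE M21 and promoters from RefSeq. Results for a few genes of the lists and patterns are not reported here.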

Additional observations from a re-analysis of the deposited data

How the results depend on the processing

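The numbers of members called in IR against Ctrl, Ab_IR against IR and L_IR against IR stayed within 1.5 times the reported 4, 6 and 8 under all alternatives, with ranges over the left-out libraries of 3 to 5, 6 to 6 and 6 to 8. Of all genes 28.6% to 59.8%, 62.8% to 66.5% and 61.8% to 62.4% were called without a library. As reported these shares were 43.1%, 68.7% and 66.8%. The member total hides a change of calls in Ab_IR against IR, where 5 higher and 1 lower became 4 and 4 without immunoglobulin genes. No member changed sign there. Slc3a2 lost its call, and Gclm, Acsl4 and Nfe2l2, already below 0, gained one. Member counts in the other comparisons did not stay within 1.5 times. In Ab_IR against L_IR the 4 member calls (38% of all genes called) became 1 with all 12 libraries in 1 fit (20.2%) and 2 with the replicate block (28.3%). Without a library they were 2 to 4 (27.2% to 34.1% of all genes called), and 2 without any one L_IR replicate. In Ab_IR against Ctrl the 0 calls became 2 in 1 fit of all libraries (19.3% of all genes called) and 6 with the Nppa term (58.8%, against 2.1% as reported), which leaves Ctrl replicate 1 as the only Ctrl library on the side of Ab_IR. In L_IR against Ctrl the 1 call became 0 without immunoglobulin genes, 4 in 1 fit (21.9% of all genes called), 0 with the block (4.29%), 7 with the Nppa term (54.3%, against 8.84% as reported) and 0 to 4 without a library (4 without Ctrl replicate 1, 0 without Ctrl replicate 2 or any one L_IR replicate). For the other pathway genes a mean of at least 10 FPKM, which tests fewer genes, gave 27 of 43 calls in IR against Ctrl, 31 of 51 in Ab_IR against IR and 34 of 56 in L_IR against IR. Of all genes kept by that filter 45.4%, 72.9% and 72% were called, against 43.1%, 68.7% and 66.8% as reported. For the settings that follow, the shares of all genes called are those given above for the members. Without a library they were 0.56% to 5.98% in Ab_IR against Ctrl and 3.49% to 20.6% in L_IR against Ctrl. In the latter the share was 5.74% without immunoglobulin genes. Their 29 calls in Ab_IR against L_IR became 18 in 1 fit, 19 with the block and 18 to 26 without a library. Their 3 in Ab_IR against Ctrl became 16, 35 with the Nppa term and 2 to 10 without a library (10 without Ctrl replicate 1). Their 9 in L_IR against Ctrl became 4 without immunoglobulin genes, 21 in 1 fit, 2 with the block, 34 with the Nppa term and 2 to 22 without a library (22 without Ctrl replicate 1, 2 without any one L_IR replicate).

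Some log2 values changed sign, and with the Nppa term Ftl1 in Ab_IR against IR (adjusted p 0.00176) and Gpx4 in L_IR against Ctrl (adjusted p 0.00508) then passed the other way. In IR against Ctrl, Slc3a2 (0.0026) turned to -0.0826 under quantile normalization and -0.014 with the Nppa term, and ranged from -0.014 (without Ctrl replicate 1; also below 0 without Ctrl replicate 2 or IR replicate 2) to 0.0249 without a library. Nfe2l2 turned to 0.0071 under median ratio scaling and 0.0356 without immunoglobulin genes. In Ab_IR against IR, Nfe2l2 ranged from -0.1035 to 0.0049 (without Ab_IR replicate 3) and Ftl1 was 0.3344 with the Nppa term. In L_IR against IR, Acsl4 ranged from -0.0575 to 0.0052 (without L_IR replicate 1) and Ftl1 was 0.1597 with the Nppa term. In Ab_IR against L_IR, Aifm2 was 0.0512 under quantile normalization and -0.0491 to 0.0838 without a library (above 0 without Ab_IR or L_IR replicate 1), and Slc3a2 was -0.0063 under quantile normalization. Slc3a2, Gss, Nfe2l2 and Mafk were -0.1054, -0.0392, -0.045 and -0.0293 without immunoglobulin genes, and Acsl4 ranged from -0.0631 to 0.0049 (without Ab_IR replicate 2). In Ab_IR against Ctrl, Gss was -0.0361 without immunoglobulin genes and -0.0119 (without Ctrl replicate 3) to 0.0579 without a library. In L_IR against Ctrl, Gpx4 was 0.2551 with the Nppa term and -0.246 to 0.0131 (without Ctrl replicate 2) without a library, Gss 0.0031 without immunoglobulin genes, and the Gpx4 over Acsl4 log2 ratio -0.0642 to 0.2212 without a library (below 0 without Ctrl replicate 1). On FPKM + 1, ratio differences moved by more than the replicate SD for Slc3a2 over Gss (IR against Ctrl 0.51 to 0.39, Ab_IR against IR -0.28 to -0.15, L_IR against IR -0.22 to -0.12) and for Gclc over Gclm (Ab_IR against IR 1.01 to 0.95, L_IR against IR 1.15 to 1.09). The cause of these changes was not tested. The replicate numbers did not pair the samples, since same-numbered samples correlated at -0.27 to 0.22 and in no comparison did every pair exceed 0.1. The block ended the calls for Gpx4 in IR against Ctrl (adjusted p 0.0639), Gclc and Lpcat3 in Ab_IR against L_IR (adjusted p 0.0683 and 0.0972) and Gclm in L_IR against Ctrl (adjusted p 0.0697). Without counts, the precision from depth cannot be given.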

Other observations

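Ggt1, which breaks down extracellular glutathione, was outside the rule for names because its mean was under 5 FPKM and is given here after its values were seen. It was listed at 0.39, 0.27 and 0.37 FPKM in Ctrl, 3.82, 3.43 and 3.56 FPKM in IR, 0.23, 0.15 and 0.25 FPKM in Ab_IR and 0.20, 0.27 and 0.16 FPKM in L_IR. Alox12, another lipoxygenase, was listed at 0.85, 1.08 and 1.21 FPKM in Ctrl, 0.26, 0.21 and 0.19 FPKM in IR, 4.21, 4.10 and 3.66 FPKM in Ab_IR and 2.18, 2.10 and 2.10 FPKM in L_IR. Agps, which forms the ether bond in ether lipid synthesis, was listed at 30.1, 30.6 and 27.9 FPKM in Ctrl, 50.4, 52.7 and 51.7 FPKM in IR, 23.95, 23.3 and 22.8 FPKM in Ab_IR and 29.7, 29.7 and 30.5 FPKM in L_IR. Each of these 3 genes had IR libraries that did not overlap any other group, as did G6pdx, Gsr, Txnrd1, Alox15 and Gclc above. The share of all genes that did so is not given here.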
